A study of Homo sapiens with 4 samples.

Results

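The nuclear genes of the respiratory chain and ATP synthase were followed in A549, a human lung adenocarcinoma cell line, after transduction with an FCN3 virus or a control empty virus (EV). FCN3 encodes ficolin-3, a secreted lectin. Members were taken by gene symbol alone: the names of the NDUFA, NDUFB, NDUFC, NDUFS and NDUFV subunits, every symbol that starts with UQCR, ATP5 or COX followed by a subunit number from 4 to 8, and SDHA, SDHB, SDHC, SDHD and CYC1. This gave 92 of the 25192 genes in the deposited tables. They held 36 subunit genes of complex I, 4 of complex II, 9 of complex III, 18 subunit and isoform genes of complex IV, 15 of ATP synthase and 10 genes that only carry such a name. RNA came from 4 libraries, 2 of EV cells (EV replicates 1 and 2) and 2 of FCN3-virus-transduced cells (FCN3 replicates 1 and 2), all taken 48 h after infection. The viruses were retroviruses that also carry GFP, so GFP and the infection itself were common to both groups, and the FCN3 coding sequence with its V5 tag was what differed. The cells were 1 line, were sequenced in bulk, and are not stated to be from separate cultures, so p-values measure only the spread between these libraries, which may be technical.

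The respiratory chain passes electrons from NADH (complex I) and succinate (complex II) through coenzyme Q to complex III, cytochrome c and complex IV, where oxygen is reduced. Complexes I, III and IV pump protons across the inner mitochondrial membrane, and ATP synthase lets them flow back to make ATP. Complex II is made wholly of nuclear-encoded subunits, whereas the other complexes also need subunits encoded by mitochondrial DNA, which are not analysed here. The nuclear genes are transcribed separately from many chromosomes, and factors such as NRF1 (nuclear respiratory factor), GABPA, YY1 and ERR receptors are known to bind many of their promoters.

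The libraries held 35733735 (EV 1), 16353554 (EV 2), 35031565 (FCN3 1) and 20136068 (FCN3 2) expected counts, so the replicate 2 libraries were shallower. FCN3 itself had 1 and 0 expected counts in EV and 722388 and 448352 with the FCN3 virus, as the labels say. TPM is a level per transcript length, scaled to the same total in each library. Of 5 epithelial markers, KRT8 and KRT18 made up most of a summed TPM of 3634 to 5259. KRT19 was at 32.56, 52.39, 87.19 and 97.88 TPM (EV 1, EV 2, FCN3 1, FCN3 2). KRT8, KRT18 and KRT19 were higher with the FCN3 virus in both pairs. EPCAM, at 2.66, 3.65, 1.09 and 1.61 TPM, and CDH1, at 6.06, 9.53, 3.35 and 6.79 TPM, were lower in both pairs. The part of these differences in the results was not tested. The sums were 1.3 to 2.14 TPM for 4 blood markers and 0 to 0.08 for 3 endothelial markers. The sum of 3 fibroblast markers was 8.61 and 8.35 in the replicate 2 libraries and 3.55 and 2.86 in the replicate 1 libraries, and its part in any result was not tested. CDKN2A, which is deleted in A549, was between 0 and 0.22 TPM.

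Expected counts were compared with edgeR's quasi-likelihood test over 14099 genes that passed edgeR's filter on low counts, and p-values were adjusted by the Benjamini-Hochberg method over all of them, with a threshold of 0.01. Two-sided tests were made in 2 fits: with the group alone (the unblocked fit), and with the replicate number as a further term, so that FCN3 1 was set against EV 1 and FCN3 2 against EV 2 (the blocked fit). The blocked fit leaves 1 residual degree of freedom per gene, and its error rests on the spread shared across genes. "Rose" and "fell" are used below of genes past the threshold in the blocked fit. Levels per gene are in CPM (counts scaled to library size, TMM-normalized), always in the order EV 1, EV 2, FCN3 1 and FCN3 2, and fold changes are log2, FCN3 virus over EV; those of single genes are from the blocked fit and medians over groups of genes from the unblocked fit.

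Of the 92 members, 83 passed the filter. In the unblocked fit 0 of the 83 were called, where 0.965% of all tested genes were (136 genes, with 0.738% of tested genes up and 0.227% down); 6 members had an unadjusted p under 0.05 (SDHA, UQCRFS1, NDUFA4L2, ATP5C1, ATP5G3 and ATP5SL), which 25.1% of all tested genes had, and DESeq2 called 0 members, where it called 7.86% of genes. In the blocked fit 20 of the 83 were called (24.1%), where 36.2% of all tested genes were, a difference in share that was not tested. Of these, 17 fell (background 17.1% of tested genes) and 3 rose (background 19.1%). DESeq2 with the block called 6 members, all down (ATP5C1, SDHA, UQCRFS1, NDUFS3, ATP5B and ATP5SL), where it called 16.2% of genes. With an offset for transcript length and GC content in the blocked edgeR fit, 30 members were called, 28 of them down. The median length was 825 bases for the subunits and 2870 for all tested genes, and across the 75 subunits Spearman's rho of the fold change was -0.26 with length and 0.01 with GC content, given as a description.

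The 75 subunit genes moved little and mostly in one direction. Their fold changes in the unblocked fit ran from -0.34 (NDUFS3) to 0.27 (NDUFV3), with a median of -0.07, where the median of all tested genes was 0.02. Below 0 were 53 subunits, and above 0 were 22, where 6783 and 7316 of all 14099 tested genes were. The size of this lean depended on the libraries and the scale. Without FCN3 replicate 2 the median of all members, -0.07 as reported, was -0.0024, that of complex I -0.0079 and that of ATP synthase -0.0081. That unblocked fit sets FCN3 1 against both EV libraries and does not keep the pairs. Within the replicate 1 and replicate 2 pairs the median of all members was -0.0531 and -0.0839. On log2(TPM + 1) the medians of all members, complex I and ATP synthase were -0.17, -0.19 and -0.22. In TPM the median of all tested genes also lay below 0, as given below. Fold changes within 0.1 of 0 were seen for 41 subunits (54.7%), against 24.7% of all tested genes, and a change of more than 0.5 in either direction for 0 of the 75, against 20.9% of all tested genes. The 95% interval of the blocked fit lay within 0.5 of 0 for 75 of the 75 subunits and for 56.1% of all tested genes, and that of the unblocked fit for 61 subunits. The median standard error was 0.11 without the block and 0.06 with it. The subunits are well expressed and have small standard errors, which moves all of these shares, so they describe the size of the changes and are no test.

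**Figure D1:**
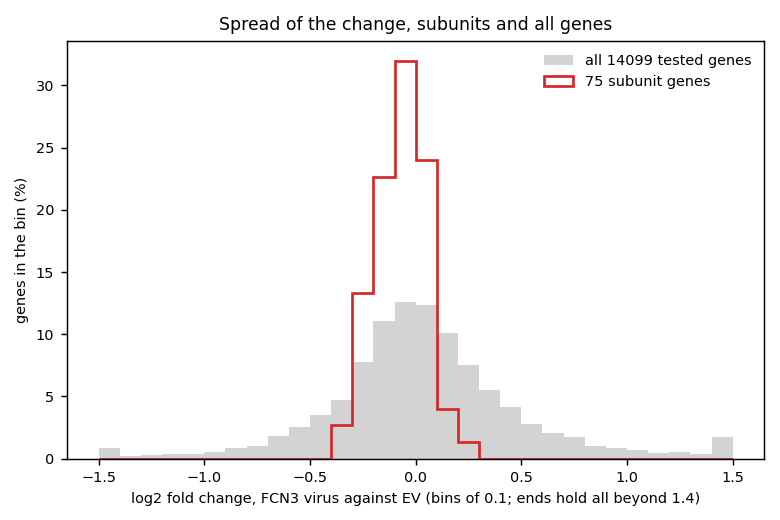
The share of genes (y axis, percent) in bins of log2 fold change, FCN3 virus over EV, blocked fit (x axis, bins 0.1 wide), for all 14099 tested genes in grey and the 75 subunit genes in red. The subunits lie between -0.34 and 0.28, with most of them below 0, while the grey bars reach past 1 on both sides.

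In 28 subunits (37.3%) the 2 groups did not overlap, meaning that the FCN3 pair lay wholly above or wholly below the EV pair, which was the case for 54.5% of all tested genes. In 22 of these 28 the FCN3 libraries were below the EV libraries (background 26.5%), and in 6 they were above (background 28.0%). Taken by replicate number, 46 of the 75 subunits were lower with the FCN3 virus in both pairs and 13 were higher in both. Of all 14099 tested genes, 5428 were lower in both pairs and 5880 were higher in both. The differences of the replicate 1 pair and the replicate 2 pair had a Pearson's r of 0.70 across the 75 subunits, which are not independent of each other. Sorted by complex, the median fold change was -0.08 for complex I, -0.18 for complex II, -0.07 for complex III, 0.03 for complex IV and -0.11 for ATP synthase.

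**Figure D2:**
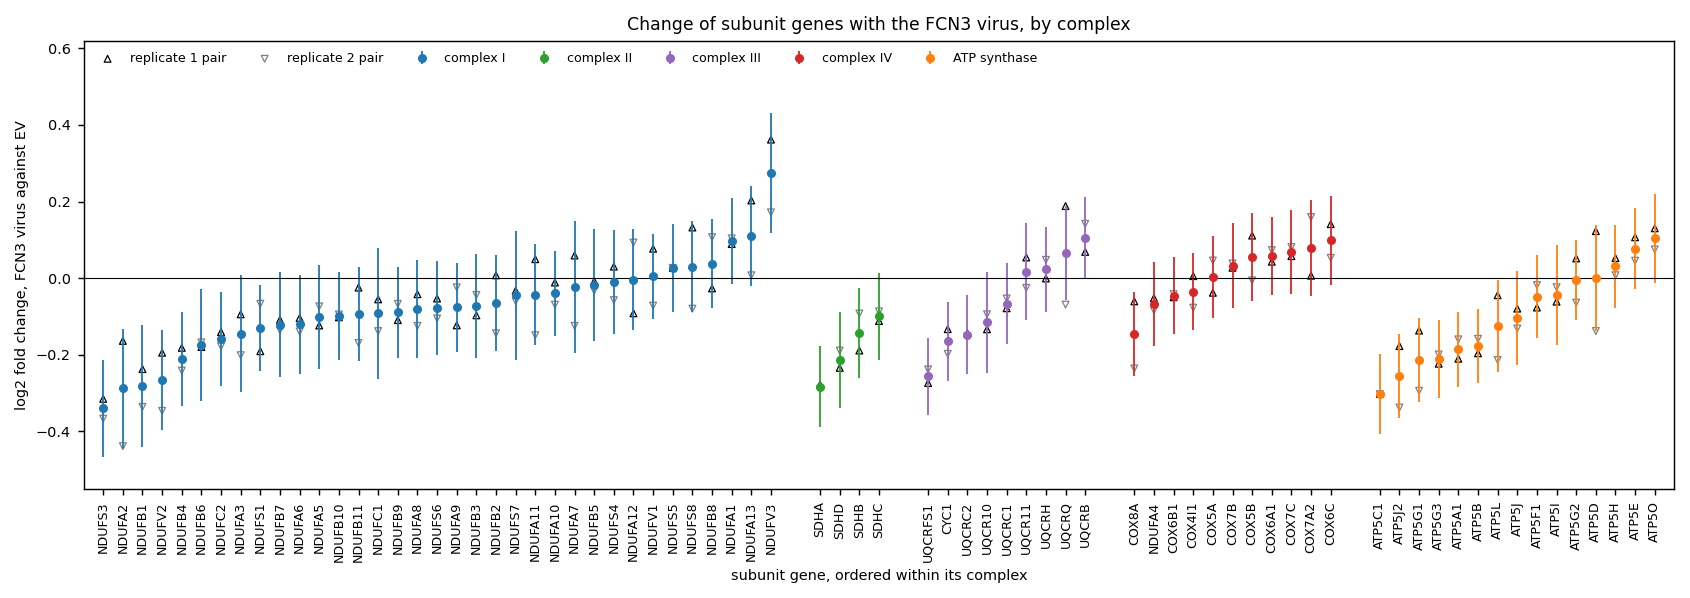
Log2 fold change, FCN3 virus over EV (y axis), of the subunit genes named on the x axis, grouped and coloured by complex; filled points are the blocked fit, bars its 95% interval, and open triangles the difference within each replicate pair. Complex IV lies around 0, the 4 complex II genes lie below 0, and no point goes beyond 0.5 in either direction.

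The promoters of subunit genes that fell are shown here for 4 genes of complexes I, II and ATP synthase, chosen after their values were seen because their promoters hold whole sites of the factors named above. Sequences are RefSeq's on GRCh38.p14, plus strand, 5′ to 3′, and all of them end before the start site. Capitals mark the GABP motif CCGGAAG or its complement CTTCCGG in NDUFS3, and in the others the palindromic NRF1 motif, which is the core GCATGCGC preceded by GC.
NDUFS3, chr11:47578952-47579017: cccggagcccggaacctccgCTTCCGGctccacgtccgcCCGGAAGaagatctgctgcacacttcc
SDHD, chr11:112086743-112086792: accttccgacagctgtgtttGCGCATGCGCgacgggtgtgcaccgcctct
NDUFB4, chr3:120596157-120596206: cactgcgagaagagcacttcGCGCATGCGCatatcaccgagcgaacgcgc
ATP5C1 (ATP5F1C in RefSeq), chr10:7788135-7788176: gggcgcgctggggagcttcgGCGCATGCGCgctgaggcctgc

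Promoters of 250 bases before to 50 bases after the start site were matched for 62 of the 75 subunit genes and searched on both strands. The NRF1 core GCATGCGC was found in 17.7% of the 62, against 3.05% of all 35116 promoters. These are all promoters of the reference, not limited to the genes tested here, whereas the 62 belong to tested genes. The shares below are set against this unlike set. The palindrome, which contains that core on both strands, was in 4 (NDUFA8, NDUFB4, SDHD and ATP5C1), or 6.45% against 1.24%. The GABP motif was in 30.6% against 10.3%, the YY1 motif AAGATGGC in 19.4% against 2.89% and the ERR motif AAGGTCA in 16.1% against 3.92%. For motifs of stress factors the shares were closer together: 3.23% against 3.62% for the ATF4 motif TGATGNAA, and 9.68% against 6.89% for the HIF motif ACGTGC. The ERSE of ER stress, CCAAT and CCACG with 9 bases between them, was in 0 of the 62 and in 0.0769% of all promoters. Sites were also found in genes that were not called, among them NDUFA8 (palindrome), COX5B and COX6A1 (NRF1 core) and NDUFA1 and NDUFA13 (GABP motif). Of the subunit genes that fell, NDUFV2, NDUFA2, NDUFB1, SDHA, UQCRFS1 and ATP5G1 had no NRF1, GABP, YY1 or ERR motif in their promoters. ATP5A1, which also fell, had the GABP and ERR motifs. For CYC1, ATP5B, ATP5J2 and ATP5G3, which fell as well, no promoter was matched. Whether genes with a site changed more than genes without one was not tested. A match of letters is a description and says nothing of whether a factor was bound in these cells.

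Complex I, the NADH dehydrogenase, is the largest complex, and its 36 nuclear genes were the largest group. Below 0 were 29 of the 36, and in the blocked fit 5 fell (NDUFS3, NDUFV2, NDUFA2, NDUFB1 and NDUFB4) and 1 rose (NDUFV3), or 16.7% called against 36.2% of all tested genes. The 7 core subunits, which carry the flavin, iron-sulfur clusters and quinone site, had a median of -0.13, and the 29 accessory subunits a median of -0.08. NDUFS3 (GRCh37 chromosome 11, 47586888 to 47606114, plus strand), a core subunit next to the quinone site, was at 72.4, 60.5, 58.2 and 46.9 CPM. Both FCN3 libraries were below both EV libraries, and the fold change was -0.34 (SE 0.06, blocked edgeR adjusted p = 1.15e-05, unblocked 0.235). NDUFV2, an iron-sulfur core subunit of the NADH-oxidizing arm, was at 64.3, 59.0, 56.2 and 46.4 CPM, a fold change of -0.27 (SE 0.06, blocked edgeR adjusted p = 0.000556, unblocked 0.263). Its groups did not overlap, and the drop was larger in replicate 2 (-0.35) than in replicate 1 (-0.19).

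Other core subunits of complex I did not pass the threshold in either fit. NDUFS1, which carries iron-sulfur clusters, had a fold change of -0.13, with groups that did not overlap. Of NDUFV1, which binds NADH and the flavin, the levels were 120.2, 123, 127 and 117 CPM, and its fold change was 0.00 with a 95% blocked interval of -0.11 to 0.12. NDUFS7 and NDUFS8, which carry the clusters nearest to coenzyme Q, had fold changes of -0.04 and 0.03.

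Among accessory subunits of complex I, NDUFV3 stood on the other side. This subunit of the NADH-oxidizing arm (chromosome 21, 44299754 to 44333414, plus strand) was at 25.8, 29.1, 33.2 and 32.8 CPM and rose by 0.28 (SE 0.08, blocked edgeR adjusted p = 0.00288, unblocked 0.211). Its FCN3 libraries were above its EV libraries, and it was the only one of the 75 subunits to rise in the blocked edgeR fit; DESeq2 with the block did not call it (adjusted p = 0.206). NDUFB4, an accessory subunit of the membrane arm whose promoter is printed above, was at 68.9, 72.5, 60.7 and 61.3 CPM, a fold change of -0.21 (SE 0.06, blocked edgeR adjusted p = 0.00378). NDUFA2 and NDUFB1, other accessory subunits, had blocked fold changes of -0.29 and -0.28, but their groups overlapped, because EV 2 was below FCN3 1 (33.7 against 33.8 CPM for NDUFA2 and 27.1 against 28.9 for NDUFB1). NDUFA1 and NDUFA13, which are needed for the membrane arm, had blocked fold changes of 0.10 and 0.11 and were not called.

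Complex II, the succinate dehydrogenase that also serves the TCA cycle, had the lowest median of the complexes, and its 4 genes were below 0 in both replicate pairs. SDHA (chromosome 5, 218418 to 257197, plus strand), the flavoprotein that oxidizes succinate, was at 181, 162, 149 and 132 CPM. Both FCN3 libraries lay below both EV libraries, and SDHA fell by 0.28 (SE 0.05, blocked edgeR adjusted p = 1.22e-05, unblocked 0.172). SDHA shares sequence with pseudogene copies, so that the split of its reads is uncertain; with the counts of SDHAP1, SDHAP2 and SDHAP3 added to SDHA, its fold change in the unblocked fit was -0.27, against -0.28 without them. SDHD, a membrane anchor whose promoter is printed above, was at 70.6, 61.1, 60.0 and 53.6 CPM and fell by 0.21 (SE 0.06, blocked edgeR adjusted p = 0.00396, unblocked 0.319). SDHB, the iron-sulfur subunit, and SDHC, the other anchor, had fold changes of -0.14 and -0.10 and were not called (blocked edgeR adjusted p = 0.0401 and 0.143). The FCN3 libraries of SDHB were below its EV libraries, while the groups of SDHC overlapped.

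In complex III, the cytochrome bc1 complex, 2 of 9 genes fell and 0 rose, or 22.2% called against 36.2% of all tested genes. Its 4 core genes, below 0 in both replicate pairs, had a median of -0.16. Its 5 small accessory genes had a median of 0.02, a difference that was not tested. On log2(TPM + 1) the accessory genes UQCRH and UQCRQ turned below 0. UQCR11, at 100.06, 85.72, 95.58 and 79.31 TPM, was also lower in TPM with the FCN3 virus in both pairs. UQCR10 was below 0 on either scale, so the sign of the accessory median depends on the scaling. In TPM the median difference of all tested genes was also below 0 in both pairs, as given below. UQCRFS1 (chromosome 19, 29696227 to 29704058, minus strand), the Rieske iron-sulfur protein, was at 294.5, 294.6, 244 and 249.8 CPM. The 2 EV libraries were nearly equal and both FCN3 libraries were lower, so that UQCRFS1 fell by 0.26 (SE 0.05, blocked edgeR adjusted p = 2.65e-05, unblocked 0.109). CYC1, the cytochrome c1 haem protein, was at 234, 229, 213 and 199 CPM and fell by 0.16 (SE 0.05, blocked edgeR adjusted p = 0.0064), with no overlap of its groups. The core proteins UQCRC2 and UQCRC1 had fold changes of -0.15 and -0.07 and were not called. Of the accessory genes, UQCRH, the hinge protein, UQCRQ and UQCRB, which lie at the membrane, had blocked fold changes of 0.02, 0.07 and 0.10, with no call among the 5.

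Complex IV, cytochrome c oxidase, the site of oxygen reduction, gave no calls among its 11 ubiquitous nuclear subunits; the isoform NDUFA4L2, described below, was called. Of the 11, 0 were called in the unblocked fit, in which 0 had an unadjusted p under 0.05, and 0 in the blocked fit, in which 36.2% of all tested genes were; DESeq2 with the block also called 0. Within 0.1 of 0 were 10 of the 11, and the groups were apart in only 1 of them (COX6C), or 9.09% against 54.5% of all tested genes. COX4I1, the subunit that binds nucleotides, was at 294, 292, 295 and 276 CPM, with a fold change of -0.04 (95% blocked interval -0.14 to 0.07). COX5A and COX5B, on the matrix side, had fold changes of 0.00 (interval -0.11 to 0.11) and 0.05 (-0.06 to 0.17). At the extremes were COX8A at -0.15 (153, 140.1, 147 and 119 CPM, blocked edgeR adjusted p = 0.0257) and COX6C at 0.10 (79.8, 84.5, 88.0 and 87.6 CPM, adjusted p = 0.165). COX6B1, which faces the intermembrane space, COX7A2 and COX7C had fold changes of -0.05, 0.08 and 0.07. NDUFA4, once counted with complex I and now placed in complex IV, had a fold change of -0.07. The median of complex IV turned from 0.03 to -0.07 on log2(TPM + 1) and to -0.05 with the offset for length and GC content, so its sign depends on the scaling. In TPM the median difference of all tested genes was itself -0.0995 in the replicate 1 pair and -0.0788 in the replicate 2 pair.

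Of the 15 genes of ATP synthase, 11 were below 0, and 6 fell and 0 rose in the blocked fit, in which 17.1% and 19.1% of all tested genes did. In the F1 head, which makes ATP, the median was -0.18. ATP5C1 (chromosome 10, 7830110 to 7849778, plus strand), the central gamma subunit that turns inside the head, was at 209, 185, 169 and 150.1 CPM. It fell by 0.30 (SE 0.05) in the replicate 1 pair and in the replicate 2 pair alike, and had the smallest adjusted p of the subunits (blocked edgeR 2.83e-06, unblocked 0.155). ATP5B, the catalytic beta subunit (chromosome 12, 57031959 to 57039768, minus strand), was at 1247, 1111, 1089 and 996 CPM and fell by 0.18 (SE 0.05, blocked edgeR adjusted p = 0.00187). ATP5A1, the alpha subunit, was at 453, 386, 391.7 and 346 CPM and fell by 0.19, although its groups overlapped because FCN3 1 was above EV 2. ATP5E, the epsilon subunit, had a blocked fold change of 0.08 and was not called.

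The ring of c subunits, which turns with the proton flow, is encoded by ATP5G1, ATP5G2 and ATP5G3, whose mature proteins are identical. ATP5G3 was at 244.7, 238, 209.6 and 207 CPM and fell by 0.21 (SE 0.05, blocked edgeR adjusted p = 0.000488, unblocked 0.162). ATP5G1 was at 164, 159.7, 149 and 130.3 CPM and fell by 0.21 (SE 0.05, blocked edgeR adjusted p = 0.000924). ATP5G2 was at 201, 218, 208 and 208 CPM, with a fold change of -0.01 and a blocked interval of -0.11 to 0.10. The difference between the 3 genes was not tested. Of the 7 other membrane and stalk genes, ATP5J2, the f subunit, was at 154, 138, 136 and 109 CPM and fell by 0.26 (SE 0.06, blocked edgeR adjusted p = 0.000122). ATP5H and ATP5O, both of the peripheral stalk, had fold changes of 0.03 and 0.10 and were not called.

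**Figure D3:**
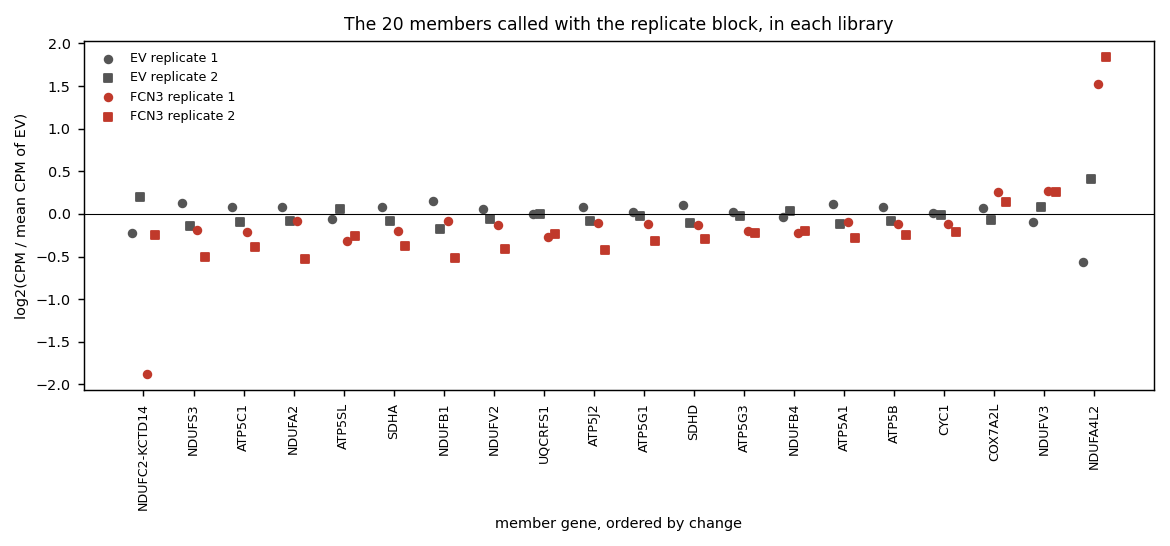
The 20 members called in the blocked fit (x axis), each library drawn as log2 of its CPM over the mean CPM of the 2 EV libraries (y axis); grey is EV, red is the FCN3 virus, circles are replicate 1 and squares replicate 2. Most red points sit between 0 and -0.5 below the grey ones, and NDUFA4L2 is the gene far above.

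The largest increase among the members was in an isoform and not in a ubiquitous subunit. NDUFA4L2 (chromosome 12, 57628686 to 57634498, minus strand) is a paralog of NDUFA4 known as a hypoxia-induced gene. It had 20 and 18 counts in EV and 79 and 58 with the FCN3 virus, or 0.549, 1.08, 2.33 and 2.92 CPM. Both FCN3 libraries were above both EV libraries, and the gene rose 3.47-fold in the blocked fit (log2 1.79, SE 0.28, 95% interval 1.23 to 2.36). The blocked edgeR adjusted p was 4.74e-07, the unblocked one 0.0546, and DESeq2 gave 0.0434 without and 0.0135 with the block. Its level stayed low: 1.46 TPM on average in EV and 4.38 with the FCN3 virus, against 119.6 and 106 TPM for NDUFA4. The tissue and stage isoforms COX4I2, COX6A2, COX7A1, COX7B2 and COX8C had at most 1 count in any library and COX6B2, the testis isoform, 7, 9, 2 and 2 counts, so none of these was tested. The copies UQCRBP1, ATP5EP2 and ATP5L2 had at most 2.07 expected counts and were also not tested. At this depth 3 counts correspond to 0.084 to 0.183 CPM.

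Genes that carry a subunit's name but are no subunit gave 3 of the calls. COX7A2L (chromosome 2, 42560686 to 42652228, minus strand), a factor that joins complexes III and IV into supercomplexes, was at 108, 98.2, 123 and 114 CPM. Its groups did not overlap and it rose by 0.20 (SE 0.06, blocked edgeR adjusted p = 0.00282, unblocked 0.271; DESeq2 with the block 0.119). ATP5SL (DMAC2 in GENCODE), a factor of complex I assembly in spite of its name, was at 90.9, 99.2, 76.5 and 79.2 CPM and fell by 0.29 (SE 0.06, blocked edgeR adjusted p = 5.08e-05, unblocked 0.123). The read-through gene NDUFC2-KCTD14 was at 5.38, 7.23, 1.71 and 5.33 CPM and fell by 1.02 in the blocked fit (adjusted p = 8.25e-06, unblocked 0.331). FCN3 1 was far below its 3 other libraries, the pair differences were -1.61 and -0.43, and its reads overlap those of NDUFC2, so its value is uncertain. NDUFC2 itself had a blocked fold change of -0.16 and was not called. ATP5S, the read-through ATP5J2-PTCD1, the near-identical copy UQCRHL and the antisense NDUFB2-AS1 had blocked fold changes of -0.03, 0.14, -0.00 and 0.10, with no call.

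Levels per length differed far more between subunits than between the groups. Over the 75 subunits the mean EV level ran from 39.7 TPM (NDUFV3) to 1286 TPM (ATP5B), a 32.4-fold range. The median level by complex was 728 TPM for complex IV, 435 for ATP synthase, 200 for complex III, 153 for complex I and 121 for complex II in EV. With the FCN3 virus the medians were 668, 355, 178, 133 and 94.1 TPM in the same order of complexes. Spearman's rho between the mean levels of the 2 groups was 0.995 across the 75 genes, which share their libraries and are not independent.

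**Figure D4:**
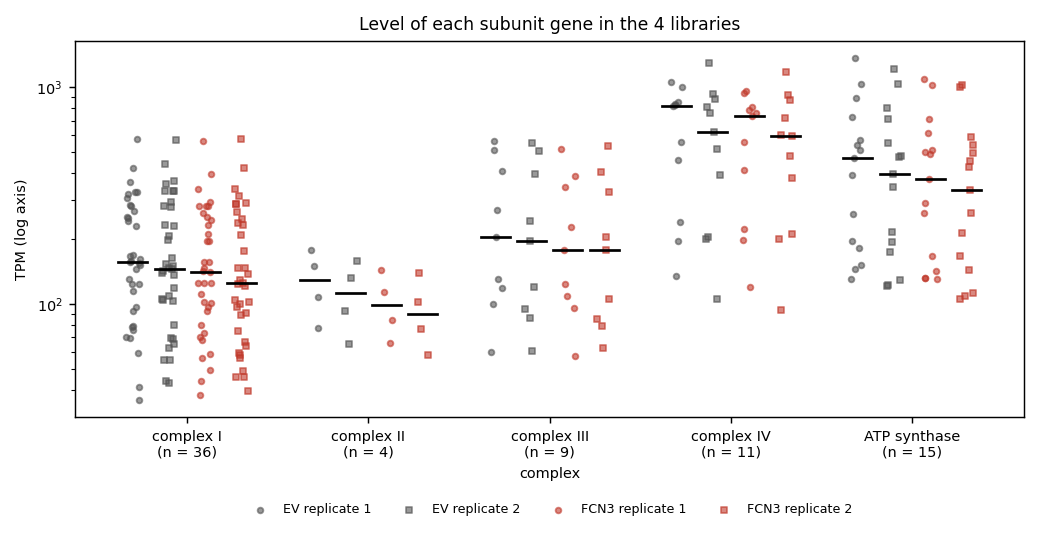
Level of each subunit gene in TPM (y axis, log scale) by complex (x axis), with a column for each of the 4 libraries; grey is EV, red the FCN3 virus, circles replicate 1, squares replicate 2, and black lines are medians. Complex IV has the highest median in each library and complex II the lowest.

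Summed TPM gave lower totals with the FCN3 virus for each complex and in both replicate pairs. All 75 subunits together held 24340 (EV 1), 23090 (EV 2), 21730 (FCN3 1) and 20530 (FCN3 2) TPM. The mean log2 difference of the sums was -0.17 for complex I, -0.29 for complex II, -0.20 for complex III, -0.10 for complex IV and -0.21 for ATP synthase. The TPM scale itself moved: FCN3 transcripts took 4.16% and 4.47% of all TPM in the FCN3 libraries, and the median TPM difference of all tested genes was -0.10 and -0.08 in the 2 pairs. In TMM-normalized CPM, the sums differed by -0.07, -0.20, -0.09, -0.00 and -0.14 in the same order, and 2 against 2 libraries cannot go below an exact two-sided permutation p of 0.333, so no test is given.

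As shares of the subunit TPM, complex II made up 2.1% and 1.94% in EV and 1.87% and 1.83% with the FCN3 virus. Complex IV made up 28.7% and 29.1% in EV and 29.9% and 30.4% with the FCN3 virus. Complex III made up 9.73% and 9.76% in EV and 9.4% and 9.64% with the FCN3 virus. The groups did not overlap for these 3 shares, of which those of complexes II and III were lower and that of complex IV higher with the FCN3 virus. Among single genes the groups did not overlap for 54.5% of all tested genes. The shares add up to 100%, so they depend on each other, and no difference between them was tested. For complex I (28.4% and 29.1%, then 28.5% and 29.0%) and ATP synthase (31.1% and 30.2%, then 30.3% and 29.1%) the groups overlapped. In bulk RNA, fewer cells that express a gene and less of its RNA per cell cannot be told apart.

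The subunits also differed by replicate number. The median absolute log2 difference was 0.155 between the replicate numbers and 0.0936 between the viruses. In the blocked fit 28 of the 83 members (33.7%) differed between replicates 2 and 1, where 22.2% of all tested genes did; 24 were lower in replicate 2 (background 10.5%) and 4 were higher (background 11.7%): NDUFA3, COX6B1, ATP5J2-PTCD1 and NDUFC2-KCTD14. NDUFB6, an accessory subunit of complex I, showed the largest difference of a subunit, at 46.4, 30.2, 41.0 and 26.9 CPM, or -0.62 for replicate 2 minus replicate 1 (blocked edgeR adjusted p = 2.12e-09). For UQCRQ (91.5, 73.5, 104 and 70.0 CPM) and COX7B of complex IV (131, 97.1, 134 and 99.8 CPM) the differences were -0.45 and -0.43. In these 3 genes both replicate 2 libraries were below both replicate 1 libraries, and none of them was called for the virus. Of the 75 subunits 49 were higher in replicate 1 in both groups, and 14 in replicate 2.

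**Figure D5:**
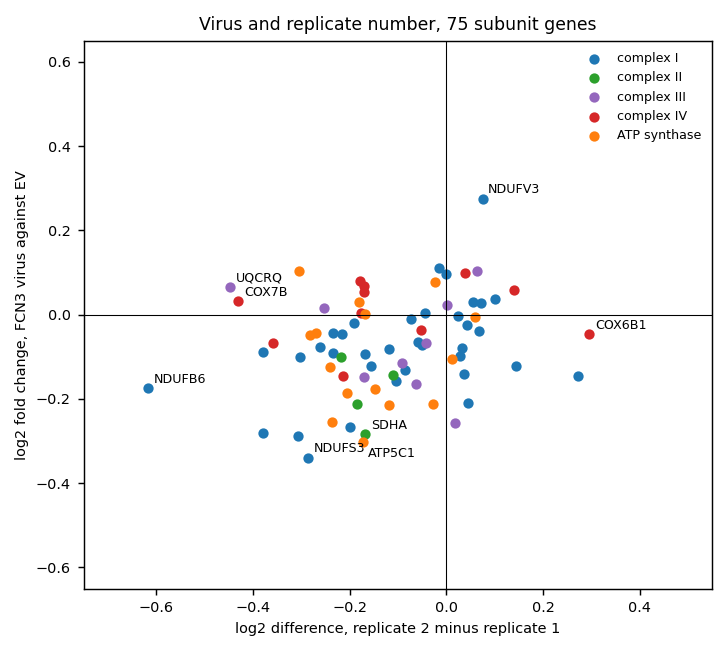
Log2 difference between the replicate numbers (x axis, replicate 2 minus replicate 1) and log2 fold change by the virus (y axis, FCN3 virus over EV), both from the blocked fit, for the 75 subunit genes coloured by complex. The points spread further along x (to -0.62 for NDUFB6) than along y (-0.34 to 0.28).

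Other genes that respiration needs were read from lists of assembly factors, carriers, regulators and neighbouring pathways. In the unblocked edgeR fit 0 genes of these lists were called; DESeq2 without the block called 1, POLRMT. An unadjusted p under 0.05 in the unblocked edgeR fit was seen for 6 of 56 assembly factors, 1 of 16 carrier genes, 2 of 14 regulators, 2 of 18 TCA cycle genes and 9 of 76 genes of the mitochondrial ribosome, where 25.1% of all tested genes had one. In the blocked fit 3 of 56 assembly factors rose and 7 fell (background 19.1% and 17.1%), with a median of -0.09 in the unblocked fit; DESeq2 with the block called 2, TTC19 and COX17, where it called 16.2% of all tested genes. By complex, 1 rose and 1 fell of 16 for complex I, 0 and 1 of 4 for complex II, 1 and 1 of 6 for complex III, 1 and 4 of 25 for complex IV, and 0 and 1 of 6 for ATP synthase. The list for ATP synthase also holds its inhibitor ATPIF1, and C14orf2 and USMG5, so it and the 56 are not assembly factors alone. TTC19, which clears Rieske fragments from complex III, was at 61.0, 55.9, 81.7 and 81.5 CPM and rose by 0.48 (blocked edgeR adjusted p = 3.32e-09, unblocked 0.0406), while UQCRFS1, the Rieske gene itself, fell. NDUFAF2, a complex I assembly factor, was at 29.8, 31, 38.5 and 42.7 CPM and rose by 0.41 (blocked edgeR adjusted p = 5.11e-06). SURF1, of complex IV assembly, rose by 0.31.

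In the other direction, COX17, the copper chaperone of complex IV, was at 35.5, 39.0, 28.6 and 25.6 CPM and fell by 0.45 (blocked edgeR adjusted p = 3.92e-06, unblocked 0.082). The groups of COX17 did not overlap, and COX11, COX16 and COX20, also of complex IV assembly, fell by 0.27, 0.28 and 0.28. Of the 25 genes of that list 4 fell and 1 rose, where 17.1% and 19.1% of all tested genes did. DESeq2 with the block called 1 of the 25, COX17. SDHAF1, which helps to insert the iron-sulfur clusters of complex II, fell by 0.37, and TMEM70, of complex I and ATP synthase assembly, by 0.29. NDUFAF1, ACN9, MNF1 and ATPIF1, the inhibitor of ATP synthase, had blocked fold changes of 0.33, -0.27, -0.23 and -0.20 and were not called.

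Of 16 genes listed for the mobile carriers and coenzyme Q, 1 rose and 3 fell (background 19.1% and 17.1%), and DESeq2 with the block called 1, COQ7. The list also holds ETFA, ETFB, ETFDH, DHODH, GPD2 and NDUFAB1, so the counts are not of carriers and coenzyme Q synthesis alone. CYCS, cytochrome c, was at 325, 259, 361 and 312 CPM and rose by 0.21 (blocked edgeR adjusted p = 0.000513), with overlapping groups. COQ7, an enzyme of coenzyme Q synthesis, was at 21.6, 19.1, 14.5 and 12.3 CPM and fell by 0.60 (blocked edgeR adjusted p = 6.06e-07, unblocked 0.0758). PDSS1, which makes the tail of coenzyme Q, and NDUFAB1, a complex I subunit that the symbol rule did not take in, fell by 0.28 and 0.20. COQ3 had a blocked fold change of -0.29 and was not called.

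Of 14 tested nuclear regulators, 1 rose and 3 fell (background 19.1% and 17.1%), and DESeq2 with the block called 1, POLRMT. POLRMT, the mitochondrial RNA polymerase, was at 88.5, 85.8, 64.0 and 60.1 CPM, with both FCN3 libraries far below both EV libraries. It fell by 0.49 (blocked edgeR adjusted p = 1.11e-09, unblocked 0.0352; DESeq2 without the block 0.00364). TFAM, which packages mitochondrial DNA, was at 123.5, 99.2, 105 and 84.2 CPM and fell by 0.24, with overlapping groups. NRF1, whose motif is shown above, was at 24.1, 20.8, 18.3 and 18.5 CPM and fell by 0.30 (blocked edgeR adjusted p = 0.00496, unblocked 0.23). TFB1M, which methylates mitochondrial ribosomal RNA, was at 10.4, 9.56, 13.8 and 13.5 CPM and rose by 0.44 (blocked edgeR adjusted p = 0.000722). GABPA and ESRRA had blocked fold changes of -0.14 and 0.07 and were not called, and PPARGC1A, a coactivator of these factors, had at most 3 counts and was not tested.

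In neighbouring pathways, 2 of 18 genes listed for the TCA cycle rose and 6 fell (background 19.1% and 17.1%), with a median of -0.15, and DESeq2 with the block called 0. That list also holds PDHA1, PDHB, DLAT and PDHX of pyruvate dehydrogenase. IDH3A, a subunit of isocitrate dehydrogenase, was at 113, 106, 93.6 and 90.8 CPM and fell by 0.25 (blocked edgeR adjusted p = 0.000185), whereas IDH3G, of the same enzyme, was at 43.7, 55.2, 54.3 and 62.6 CPM and rose by 0.25 (blocked edgeR adjusted p = 0.00124) with overlapping groups. CS, citrate synthase, FH, fumarase, SUCLG1, SUCLG2 and PDHB fell by 0.19 to 0.23. Of 76 genes of the mitochondrial ribosome, which makes the mitochondrially encoded subunits, 3 rose and 17 fell (background 19.1% and 17.1%), with a median of -0.09, and DESeq2 with the block called 3. MRPL20 and MRPL34, of its large subunit, fell by 0.35 and 0.31, of which DESeq2 with the block called MRPL20 (adjusted p = 0.00753 and 0.109).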

How the data were processed

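RNA of 4 A549 libraries was sequenced from stranded mRNA libraries, and reads were trimmed by the authors, mapped with STAR 2.6.1d to hg19 (version and build per the submitters' processing notes) and assigned to RefSeq transcripts with RSEM. The deposited files give per gene an expected count, which is not normalized and need not be whole, and TPM, which the authors' RSEM run normalized for length and depth; the deposited FPKM values were not used. The strand setting of the counting is not given in the sources used here, so reads of overlapping and antisense genes may be shared. Groups and replicate numbers came from the sample labels.

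Rounded expected counts went into edgeR 4.0.16 under R 4.3.3 (TMM, filterByExpr, quasi-likelihood fit and test, Benjamini-Hochberg adjustment over 14099 genes, FDR 0.01), once with the group alone and once with the replicate number added as a block. CPM are TMM-normalized, with no prior count. A standard error was obtained from the test as the size of the log2 fold change over the root of its F statistic. The labels give only a number for each library. Deviations from the group means of same-numbered libraries had an r of 0.81 over 8310 genes with a log2 CPM above 4, and 0.83 over the 75 subunits. Intervals are 95%, and the floor of 3 counts covers counting error only. Gene positions are from GENCODE on GRCh37, and promoters from RefSeq tables on GRCh38.p14.

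The members and lists were chosen with earlier results of these data known. The genes named are those of a written rule: the 3 highest and lowest of each complex, core subunits, isoforms, complex II, members that are no subunit, and the 2 largest changes of each related list; other genes named were chosen after their values were seen, and some results are not reported here. The list of subunits encoded by mitochondrial DNA had 0 genes in the tables used here. The alternatives were DESeq2 1.42.0, limma 3.58.1 on log2(TPM + 1) and log2(TPM + 0.1), other size factors, filters and thresholds, FCN3 left out, copies summed, an offset for length and GC content, and each library left out; limma-voom and the same alternatives with the block were chosen after seeing the data. The fits were also run on simulated counts, with planted changes larger than any seen in the subunits, so that run does not bear on the calls reported here.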

Additional observations from a re-analysis of the deposited data

How the results depend on the processing

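Calls among the members depended on the pairing: the replicate block gave 20 called members against 0 with no replicate block, DESeq2 with the replicate block 6, the block with an offset for length and GC content 30, and limma-voom with the block 20. Without the block, DESeq2, other size factors, filters and thresholds, limma on TPM and leaving out any library left the count at 0 (0 to 0 over the 4 libraries left out). Of members called down with the block (17), no replicate block left 0, DESeq2 with the block 6, and the offset gave 28. No filter on low counts gave 14 called members with the block and an FDR of 0.05 gave 27. Over all genes, 136 were called without the block, against 5103 with it, 1047 and 2212 by DESeq2 without and with it, 1014 at an FDR of 0.05, 5848 with the block and the offset, and 5143 by limma-voom with the block; leaving out 1 library gave 92 to 267, the latter without EV replicate 2. The cause of these differences was not tested. A paired fit with 1 library left out was not run, since it leaves no residual degree of freedom.

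Median log2 fold changes kept their sign except in complex IV. On log2(TPM + 1) and on log2(TPM + 0.1) they were -0.17 and -0.17 for all members, -0.19 and -0.19 for complex I, -0.28 and -0.28 for complex II, -0.17 and -0.17 for complex III, -0.074 and -0.074 for complex IV and -0.22 and -0.22 for ATP synthase. Without a pseudocount, the median log2 TPM difference of all tested genes was -0.09 as the mean of both pairs. With the block and the offset they were -0.11 for all members, -0.13 for complex I, -0.24 for complex II, -0.052 for complex IV and -0.18 for ATP synthase. The median of complex III, -0.066 as reported, was -0.079 by DESeq2 without the block, -0.078 with it and -0.074 with DESeq2's size factors in edgeR. Leaving out each library in turn gave -0.14 to -0.0024 for all members, -0.13 to -0.0079 for complex I, -0.27 to -0.073 for complex II, -0.15 to -0.029 for complex III, -0.065 to 0.12 for complex IV and -0.20 to -0.0081 for ATP synthase, with the values nearest 0 without FCN3 replicate 2 for all members, complex I and ATP synthase, and without EV replicate 1 for complexes II and III; complex IV was above 0 without EV replicate 1 or FCN3 replicate 2 and below 0 without EV replicate 2 or FCN3 replicate 1. Summed TPM differed by -0.17, -0.29, -0.20, -0.10 and -0.21 (complexes I to IV and ATP synthase), and sums in CPM by -0.071, -0.20, -0.094, -0.0043 and -0.14.

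Of 87 genes compared, 30 changed sign under at least 1 setting; of these only NDUFAB1 was called with the block, and no respiratory chain member called with the block was among them. They did so by DESeq2 (NDUFV1 -0.0072, COX5A -0.012 and NDUFB2-AS1 -0.017), by DESeq2 with the block (NDUFV1 -0.0073 and COX5A -0.0097) and with DESeq2's size factors in edgeR (NDUFV1 -0.0034 and COX5A -0.0082). On log2(TPM + 1) they were NDUFA1 -0.0098, NDUFA13 -0.0004, UQCRH -0.082, UQCRQ -0.043, COX7C -0.038, COX7A2 -0.022, COX6C -0.0069, ATP5H -0.076, ATP5E -0.030, ATP5O -0.0016, NDUFS8 -0.078, NDUFV1 -0.10, COX5A -0.10, COX5B -0.053, NDUFB2-AS1 -0.040, ESRRA -0.033 and COX7B -0.074, and on log2(TPM + 0.1) the same genes had the same rounded values but for UQCRQ -0.044, ATP5E -0.031 and NDUFB2-AS1 -0.047. With the block and the offset they were NDUFA1 -0.0074, UQCRH -0.069, COX7C -0.052, COX7A2 -0.011, ATP5H -0.056, ATP5E -0.030, COX5A -0.052 and COX7B -0.082. By limma-voom without and with the block, UQCRHL was at 0.0024 and 0.0092. Over the 4 libraries, each omitted once, fold changes ran from -0.24 to 0.34 for UQCRQ, -0.30 to 0.0009 for COX8A, -0.27 to 0.13 for NDUFA4, -0.20 to 0.10 for COX6B1, -0.026 to 0.17 for COX7C, -0.050 to 0.22 for COX7A2, -0.075 to 0.13 for ATP5H, -0.073 to 0.26 for ATP5O, -0.22 to 0.030 for SDHC, -0.17 to 0.074 for NDUFS7, -0.044 to 0.10 for NDUFS8, -0.058 to 0.062 for NDUFV1, -0.084 to 0.011 for COX4I1, -0.11 to 0.12 for COX5A, -0.065 to 0.17 for COX5B, -0.055 to 0.046 for ATP5G2, -0.27 to 0.24 for ATP5S, -0.098 to 0.056 for UQCRHL, -0.49 to 0.83 for ATP5J2-PTCD1, -0.51 to 0.58 for NDUFB2-AS1, -0.28 to 0.041 for GABPA, -0.095 to 0.22 for ESRRA, -0.52 to 0.19 for NDUFB6, -0.20 to 0.28 for COX7B and -0.39 to 0.026 for NDUFAB1.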
